A study of Mus musculus with 6 samples.

Results

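Kdr, Ptprb, Calcrl, Aqp1, Cyyr1, Plxnc1 and Amotl1, receptor, channel and junction genes of vascular cells, are described here across 6 mouse liver libraries. They are 7 of the 1834 genes in the deposited table. They were matched by gene symbol, and they had been picked with the difference between these same libraries in view. Their group difference is therefore given as a description and carries no test. Livers came from mice on the same diet. One group, labelled WT, received an adeno-associated virus (AAV) vector with green fluorescent protein (AAV-GFP, 3 libraries). The other, labelled Ly6d overexpression, received an AAV with Ly6d (AAV-Ly6d, 3 libraries), a gene for a small membrane-anchored protein. AAV vectors carry a gene into cells without replicating, and both groups carry such a vector. Nothing used here gives the strain, age, sex, kind of diet, vector dose, promoter or time after injection. Whether each library is from an animal of its own is not stated either. A p-value here sets the group difference against the spread among libraries of a group, and that spread may be technical.

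The liver sinusoid is lined by fenestrated endothelial cells that depend on vascular endothelial growth factor (VEGF) made by neighbouring cells. VEGF acts through the receptor tyrosine kinase encoded by Kdr. The angiopoietin receptor encoded by Tek works beside it and is dephosphorylated by the phosphatase that Ptprb encodes. Calcrl encodes a G protein-coupled receptor that, paired with a receptor activity-modifying protein, binds calcitonin gene-related peptide or adrenomedullin. Aqp1 encodes a water channel found in endothelium and also in bile duct epithelium and red blood cells. Plxnc1 encodes a plexin, a receptor for semaphorins that is also known from myeloid cells. The angiomotin-family scaffold encoded by Amotl1 sits at cell junctions and binds YAP, the transcriptional coactivator of the Hippo pathway. Cyyr1 encodes a small cysteine- and tyrosine-rich membrane protein.

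The promoters were examined first, since the genes had been picked for a common direction. RefSeq windows of 300 bases (250 before and 50 after a start site, GRCm38.p6) were found for 6 of the 7 genes, and no window was matched for Ptprb. Shown are the 250 bases before the start of Kdr (chr5:75978456-75978705, minus strand), Aqp1 (chr6:55336049-55336298, plus strand) and Plxnc1 (chr10:94944846-94945095, minus strand). These windows lie in front of the first exon in GENCODE, with 3, 0 and 0 bases inside annotated exons. Those of Calcrl, Cyyr1 and Amotl1 have 145, 250 and 56 of these 250 bases inside exons. The Cyyr1 stretch is thus wholly exonic, and it still counts among the 6 windows below. Capitals mark matches to any motif searched, on either strand.
Kdr: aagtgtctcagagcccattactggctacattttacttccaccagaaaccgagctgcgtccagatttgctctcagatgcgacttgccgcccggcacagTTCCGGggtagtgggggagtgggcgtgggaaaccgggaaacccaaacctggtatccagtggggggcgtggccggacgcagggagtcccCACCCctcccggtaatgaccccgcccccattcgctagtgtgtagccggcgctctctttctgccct
Aqp1: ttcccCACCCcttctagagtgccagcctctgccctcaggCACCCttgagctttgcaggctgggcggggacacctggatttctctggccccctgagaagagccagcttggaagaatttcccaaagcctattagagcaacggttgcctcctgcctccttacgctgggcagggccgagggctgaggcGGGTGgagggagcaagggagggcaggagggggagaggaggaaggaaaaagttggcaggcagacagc
Plxnc1: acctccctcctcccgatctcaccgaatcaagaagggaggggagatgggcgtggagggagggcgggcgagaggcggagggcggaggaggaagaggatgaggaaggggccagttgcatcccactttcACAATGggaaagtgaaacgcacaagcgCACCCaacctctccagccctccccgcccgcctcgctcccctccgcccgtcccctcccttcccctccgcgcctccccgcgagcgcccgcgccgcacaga
The KLF-type letters CACCC occurred in 6 of the 6 windows, but they also occurred in 57.5% of 32851 RefSeq promoters of the same length. The ETS-type letters CCGGAA occurred in Kdr alone, against 14.9% of RefSeq promoters. The match is on the strand opposite to the printed one, and as printed it begins 153 bases before the start. ACAATG, a SOX-type sequence, was found in Calcrl and Plxnc1 (12.6% of RefSeq promoters). None of these 6 windows held the forkhead-type letters GTAAACA, present in 3.65% of RefSeq promoters. The same was found for AGATAA, the letters bound by GATA factors and present in 11.2% of RefSeq promoters. The core promoter letters TATAAA were also in none of the 6, against 13.6% of RefSeq promoters. No matches overlapped one another. CpG dinucleotides in the 300 bases numbered 30 in Plxnc1, 21 in Amotl1, 19 in Kdr, 8 in Aqp1, 7 in Calcrl and 6 in Cyyr1, with a median of 7 over RefSeq promoters. The windows thus differed among themselves in CpG content, and the one motif they shared is also common elsewhere.

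Values below are normalised read counts, that is, reads divided by a size factor per library. The 1834 genes held 3248078 to 4359932 reads per library. Ly6d itself ranged from 9.68 to 182 in AAV-GFP and from 1799 to 3275 in AAV-Ly6d. The table holds few genes near no difference; the rule that selected them is unknown here, and calls inside it are too generous for that reason. Of 1780 genes tested with limma, 782 (43.9%) passed an adjusted p of 0.05, and 499 (28.0%) did so with a lower value in AAV-Ly6d. Rescaling each library by its median ratio over the table shifts the median log2 difference by 0.34, from -0.67 to -0.33, and both scales are given for each gene. It also turns the split of calls, from 499 lower and 283 higher to 290 lower and 651 higher. AAV-GFP replicate 2 often stood apart from the other AAV-GFP libraries. Of the hepatocyte markers in the table, Apob, the gene of a main structural apolipoprotein, held 743167 in that library against 201516 and 186314 in replicates 1 and 3.

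All 7 genes passed the filter on low values and were lower in AAV-Ly6d, with group means between 22.7% and 40.0% of those in AAV-GFP. For all 7 the highest AAV-Ly6d library lay below the lowest AAV-GFP library, as it did for 49.3% of tested genes (84.5% had groups apart in either direction). The count past limma's threshold was 7 of 7, beside the 28.0% of tested genes that passed lower. It was 7 after rescaling too, where 16.3% of tested genes passed lower and 52.9% in either direction. The genes were picked on this contrast, so neither count adds support. The median log2 difference was -1.88 (range -2.02 to -1.32), beside -0.67 for all tested genes, and -1.54 after rescaling. In bulk liver, fewer endothelial cells and less RNA per cell cannot be told apart. Leaving out AAV-Ly6d replicate 1 took the count of 7 to 0, and 0 of all 1764 tested genes passed in that fit. At an unadjusted limma p under 0.05 that fit had 7 of the 7 genes and 773 of the 1764. Leaving out AAV-Ly6d replicate 3 took the count of 7 to 4, where Ptprb, Calcrl and Amotl1 no longer passed. Of all 1758 tested genes in that fit, 13 passed lower and 6 passed higher, so calls were lost well beyond these 3 genes. Unadjusted counts given for the lists below stand beside 841 of 1758 tested genes without AAV-Ly6d replicate 3, 866 of 1765 without AAV-Ly6d replicate 2, 1173 of 1744 without AAV-GFP replicate 1 and 1138 of 1743 without AAV-GFP replicate 3.

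**Figure D1:**
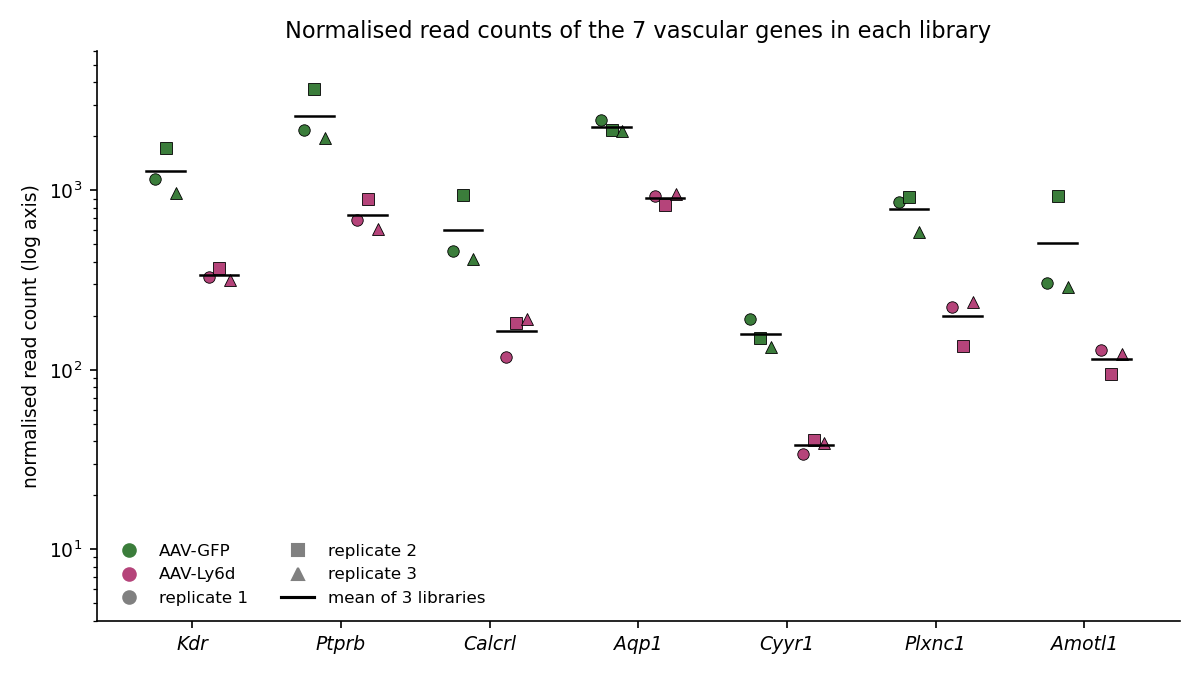
Normalised read counts (log axis) of the 7 genes in each library, with AAV-GFP in green and AAV-Ly6d in pink, a symbol for each replicate number and a bar at the mean of 3 libraries. Within each gene the groups do not overlap, and AAV-GFP replicate 2 (square) is the highest library for Kdr, Ptprb, Calcrl, Plxnc1 and Amotl1 but not for Aqp1 or Cyyr1.

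Kdr, the VEGF receptor tyrosine kinase gene, held 1162, 1726 and 962 in AAV-GFP replicates 1, 2 and 3. In AAV-Ly6d replicates 1, 2 and 3 it held 328, 372 and 316. The 3 AAV-Ly6d libraries were close together, and the lowest AAV-GFP library was 2.59 times the highest of them. The means were 1283 ± 396 and 338 ± 29.6 (SD, n = 3 each), 3.79-fold lower in AAV-Ly6d. On the log2(value + 1) scale the difference was -1.88 (SE 0.25), and -1.54 after rescaling. Kdr (ENSMUSG00000062960) maps to chromosome 5, positions 75932827 to 75978458 of GRCm38 (minus strand), and its longest annotated transcript has 30 exons.

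Ptprb, the endothelial receptor phosphatase gene, held 2169, 3668 and 1960 in AAV-GFP and 679, 891 and 608 in AAV-Ly6d, in replicate order. Replicate 2 was the highest library of both groups. Its mean was 3.58-fold lower in AAV-Ly6d (2599 ± 932 and 726 ± 147, SD, n = 3 each), with a log2 difference of -1.80 (SE 0.28) that became -1.46 after rescaling. The gene (ENSMUSG00000020154) lies on the plus strand of chromosome 10, from 116275523 to 116389535.

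For Calcrl, the receptor gene for calcitonin gene-related peptide and adrenomedullin, values were 462, 942 and 413 in AAV-GFP and 119, 182 and 191 in AAV-Ly6d. Its AAV-GFP replicate 2 was 2.15 times the mean of replicates 1 and 3. The means of 605 ± 292 and 164 ± 39.7 (SD, n = 3 each) differed 3.69-fold. The log2 difference was -1.81 (SE 0.36), -1.46 after rescaling and -1.44 without AAV-GFP replicate 2. Calcrl (ENSMUSG00000059588) spans 84330626 to 84425411 on the minus strand of chromosome 2.

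Plxnc1, the semaphorin receptor gene, held 866, 917 and 590 in AAV-GFP. In AAV-Ly6d it held 223, 136 and 238, and here replicate 2 was the lowest library. Means of 791 ± 176 and 199 ± 55.3 (SD, n = 3 each) gave a ratio of 3.98. The log2 difference was -2.00 (SE 0.29), and -1.66 after rescaling. This gene (ENSMUSG00000074785) occupies 94790866 to 94944835 of chromosome 10 on the minus strand, and 1.38% of its exonic bases also belong to the unnamed model Gm48718 on the same strand.

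Aqp1, the water channel gene, differed least of the 7. It held 2476, 2159 and 2154 in AAV-GFP and 935, 825 and 957 in AAV-Ly6d. Libraries of each group lay close together, with coefficients of variation of 8.17% and 7.82%. Group means of 2263 ± 185 and 906 ± 70.8 (SD, n = 3 each) stood in a ratio of 2.50, and the log2 difference was -1.32 (SE 0.17), or -0.98 after rescaling. Aqp1 (ENSMUSG00000004655) lies on the plus strand of chromosome 6 from 55336432 to 55348555 with 4 exons.

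Aqp1 is also known from red cells and bile ducts, so the markers of those cells are given beside it. Of 10 erythroid markers 5 were in the table, and their summed level was 2708 to 5863 in AAV-GFP and 1898 to 2850 in AAV-Ly6d. Of these 5, 2 fell, 0 rose and 3 did not pass, beside 499 falls and 283 rises among all 1780 tested genes. The globin gene Hba-a1, whose near-identical copies can share reads, fell (log2 difference -0.89, adjusted p = 0.0414 in limma). It did not pass after rescaling (-0.55, adjusted p = 0.0905), nor once any one library other than the first AAV-GFP replicate was dropped. Among 12 cholangiocyte markers the table held Sox9 alone, which rose (log2 difference 1.38, adjusted p = 0.0351 in limma). It did not pass once AAV-GFP replicate 1 or any one AAV-Ly6d library was dropped. The part of these cells in the Aqp1 values was not tested.

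Cyyr1, the gene of a small membrane protein, had the lowest values of the 7 in AAV-GFP, 192, 151 and 134. In AAV-Ly6d it held 34.0, 40.9 and 39.2, which rest on 35 to 41 reads per library. The lowest AAV-GFP library was 3.28 times the highest AAV-Ly6d library, the widest gap among these genes. From 159 ± 29.6 to 38.0 ± 3.56 (SD, n = 3 each) its mean was 4.18-fold lower, with a log2 difference of -2.02 (SE 0.28), or -1.68 after rescaling. Cyyr1 (ENSMUSG00000041134) occupies 85421533 to 85553397 of chromosome 16 (minus strand), and 1.86% of its exonic bases overlap the processed pseudogene Gm2541.

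Amotl1, the junction scaffold gene, held 306, 928 and 289 in AAV-GFP and 129, 94.7 and 122 in AAV-Ly6d. Its AAV-GFP mean leaned on replicate 2, which was 3.12 times the mean of replicates 1 and 3. Group means of 508 ± 364 and 115 ± 18.2 (SD, n = 3 each) stood 4.40-fold apart, the largest ratio of the 7. The log2 difference was -1.92 (SE 0.45), -1.58 after rescaling and -1.37 without AAV-GFP replicate 2. Amotl1 (ENSMUSG00000013076) occupies 14541966 to 14645056 of chromosome 9 (minus strand).

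**Figure D2:**
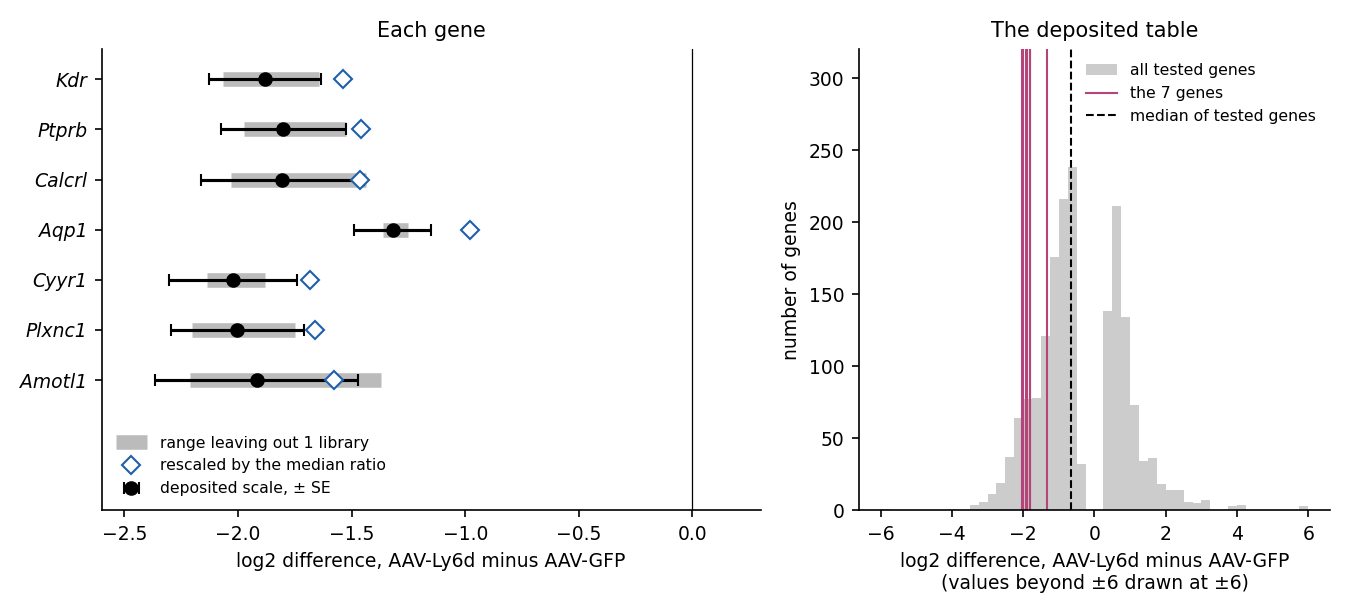
Left, log2 difference (AAV-Ly6d minus AAV-GFP) of each gene with its standard error, the range over fits that leave out 1 library, and the value after rescaling by the median ratio. Right, number of tested genes by log2 difference, with the 7 genes as pink lines between -2.02 and -1.32 and the median of all tested genes (-0.67) dashed; the table holds few genes near 0.

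How the genes stood to one another could be read free of scaling, from ratios inside each library. The Ptprb to Kdr ratio was 1.87, 2.13 and 2.04 in AAV-GFP and 2.07, 2.40 and 1.93 in AAV-Ly6d. That made it the steadiest of the 6 ratios to Kdr in AAV-GFP, with means of 2.01 ± 0.131 and 2.13 ± 0.240 (SD, n = 3 each). Calcrl stood at 0.457 ± 0.0781 of Kdr in AAV-GFP and 0.487 ± 0.122 in AAV-Ly6d. Plxnc1 (0.630 ± 0.108 and 0.600 ± 0.207), Amotl1 (0.367 ± 0.149 and 0.345 ± 0.0785) and Cyyr1 (0.131 ± 0.0396 and 0.113 ± 0.0104) likewise differed between groups by less than their SD within AAV-GFP. For Aqp1 the ratio to Kdr was 2.13, 1.25 and 2.24 in AAV-GFP and 2.85, 2.22 and 3.03 in AAV-Ly6d. Its mean was higher in AAV-Ly6d by 0.56 on the log2 scale, and the groups overlapped because AAV-Ly6d replicate 2 (2.22) lay below AAV-GFP replicate 3 (2.24). In none of the 6 ratios were the groups apart.

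**Figure D3:**
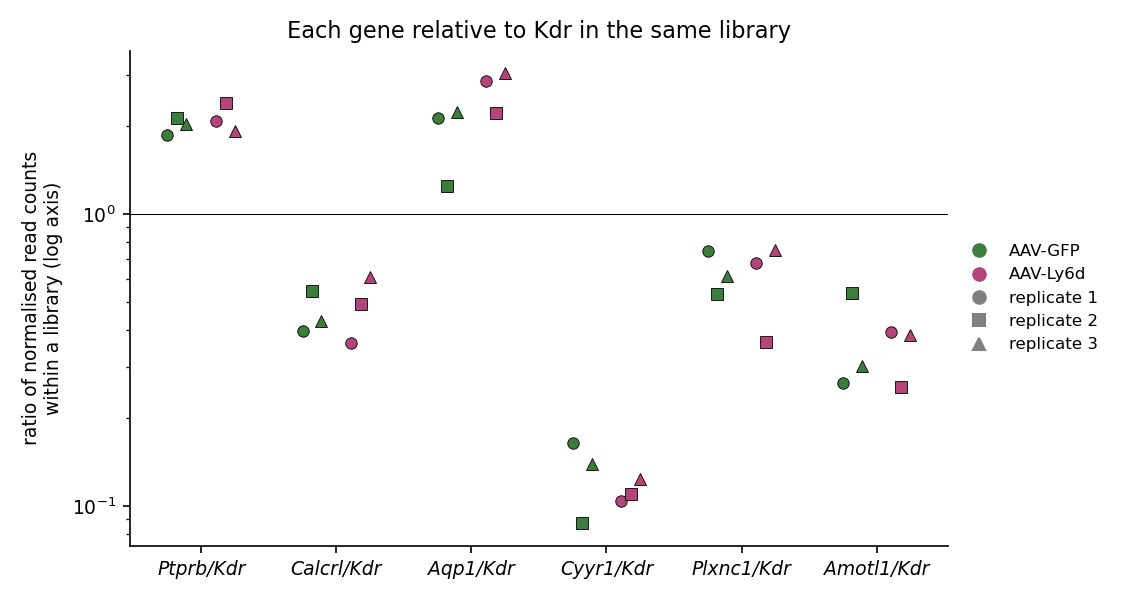
Ratio of each gene to Kdr in the same library (log axis), AAV-GFP in green and AAV-Ly6d in pink with a symbol for each replicate number. The groups overlap for each of the 6 ratios; Aqp1 to Kdr is lowest in AAV-GFP replicate 2 (1.25).

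Levels of different genes were compared per kilobase of annotated exonic sequence. In AAV-GFP, Aqp1 had the highest level, 861 ± 70.3 normalised reads per kilobase (SD, n = 3). It was followed by Ptprb (195 ± 69.9), Kdr (142 ± 43.9), Calcrl (124 ± 59.9), Plxnc1 (94.7 ± 21.1), Amotl1 (50.4 ± 36.1) and Cyyr1 (17.9 ± 3.32). From Ptprb down to Amotl1, each gene's libraries overlapped those of its neighbour in this order, whereas Aqp1 and Cyyr1 stood clear at either end. The order of the means was the same in AAV-Ly6d, with Aqp1 at 345 ± 27.0, Ptprb at 54.5 ± 11.03, Kdr at 37.5 ± 3.28 and Calcrl at 33.6 ± 8.13. Lower still in AAV-Ly6d were Plxnc1 (23.8 ± 6.63), Amotl1 (11.5 ± 1.81) and Cyyr1 (4.27 ± 0.400). Here Kdr overlapped Calcrl and Calcrl overlapped Plxnc1, and the other neighbours were separate. Divided by the longest transcript instead, Kdr (217) and Ptprb (218) were level in AAV-GFP.

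Among the AAV-GFP libraries the 7 genes did not vary alike. AAV-GFP replicate 2 over the mean of replicates 1 and 3 was 3.12 for Amotl1, 2.15 for Calcrl, 1.78 for Ptprb and 1.63 for Kdr. It was 1.26 for Plxnc1, 0.933 for Aqp1 and 0.925 for Cyyr1. Over 1771 tested genes with a value in these libraries the median of this ratio was 1.12, with a 25th percentile of 0.755 and a 75th of 1.78. Amotl1 was high even among them, with 7.79% of genes higher, and Aqp1 and Cyyr1 lay below the median.

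Transcript length moved with both the group difference and this library. Tested genes were put into 4 length classes of 444 or 445 genes. The class with the longest transcripts (5564 to 27908 bases) had a median log2 difference of -0.87, and the class with the shortest (57 to 2247 bases) one of 0.59. Kdr, Ptprb, Plxnc1 and Amotl1 fall in the longest class, with 5924, 11911, 7302 and 8957 bases. Calcrl (4882) and Cyyr1 (5464) fall in the next, whose median was -0.76, and Aqp1 (2627) in the one below, whose median was 0.36. Each of the 7 genes was lower than the median of its own class, but the 7 had been picked on this contrast. The ratio of AAV-GFP replicate 2 to replicates 1 and 3 had a median of 0.821 in the shortest class and 1.66 in the longest. Without that library the median log2 differences of these classes were 0.46 and -0.62. The part of transcript length in the 7 genes' values was not tested.

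**Figure D4:**
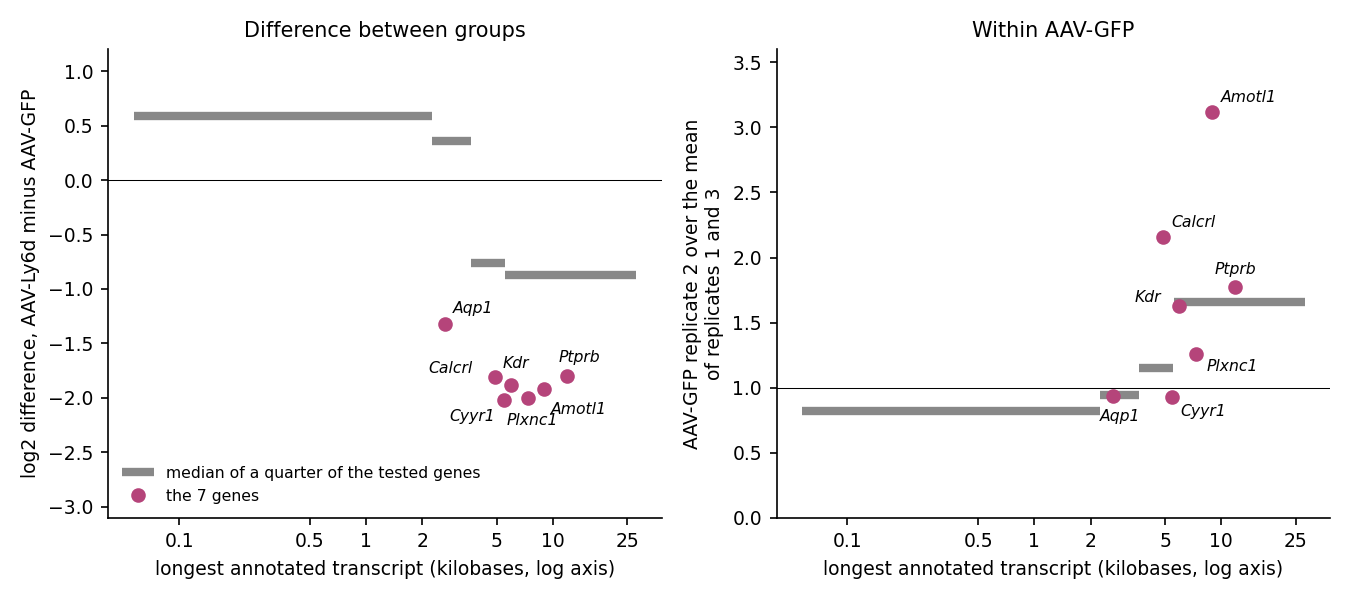
Longest annotated transcript (kilobases, log axis) against the log2 difference between groups (left) and against AAV-GFP replicate 2 over the mean of replicates 1 and 3 (right), with the 7 genes as points and the median of each of the 4 length classes as a grey bar over its length range. Aqp1, the shortest of the 7, lies at -1.32 where its class has a median of 0.36, and the right panel shows bars rising from 0.821 to 1.66 with length.

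Other genes of the VEGF system in the table were lower as well. Counts for this list and the lists below stand beside 499 falls and 283 rises among all 1780 tested genes. Since the table holds few genes near no difference, these counts do not speak for listed genes outside it. Of 20 listed ligand, receptor and signalling genes 5 were in the table, Kdr and 4 others, and 3 of these 4 fell while 0 rose, with a median log2 difference of -1.20. Flt4, the receptor for VEGF-C best known from lymphatic endothelium, held 595, 575 and 545 in AAV-GFP and 157, 293 and 173 in AAV-Ly6d (log2 difference -1.51, SE 0.27, adjusted p = 0.0278 in limma). Flt1, a VEGF receptor often described as a decoy, fell by 1.24 on the log2 scale and the co-receptor gene Nrp2 fell by 1.16. Tns3, a focal adhesion gene named because it was the one that did not pass, had a value of -0.67. The ligands Vegfa, Vegfb, Vegfc, Vegfd and Pgf were not among the 1834 genes and are not analysed here. After rescaling, Nrp2 did not pass (-0.81, adjusted p = 0.0856 in limma). Leaving out AAV-GFP replicate 1 or 3 made the count 1, replicate 2 of either group 2, and AAV-Ly6d replicate 1 or 3 made it 0, with 3 genes at an unadjusted p under 0.05 in either case.

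The angiopoietin receptors and junction genes in the table that share a setting with Ptprb also fell. Besides Ptprb, 4 of 17 listed genes were tested and 4 fell, on the deposited scale and after rescaling. Tek, the angiopoietin receptor gene, held 394, 331 and 274 in AAV-GFP and 85.5, 139 and 129 in AAV-Ly6d (log2 difference -1.51, SE 0.28, adjusted p = 0.0287 in limma). Its relative Tie1 fell by 1.25, and the tight junction genes Cldn5 (-1.31) and Jam2 (-1.15) fell as well. The count of 4 dropped to 1 on leaving out AAV-GFP replicate 1 or AAV-Ly6d replicate 2. It dropped to 0 on leaving out AAV-Ly6d replicate 1 or 3, with 4 at an unadjusted p under 0.05 in both. Cdh5, Pecam1 and the angiopoietin genes were not analysed here.

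Around Calcrl, 3 further genes of an 11-gene list were tested. Ackr3, an atypical receptor that takes up adrenomedullin and chemokines, fell from 11.6, 21.5 and 42.2 in AAV-GFP to 1.94, 5.98 and 1.09 in AAV-Ly6d. Cpe, the gene of a peptide-processing carboxypeptidase, fell from 23.2, 12.9 and 43.0 to 0.972, 0.997 and 7.62. Both are low genes, with log2 differences of -2.72 and -2.92 in limma that became -1.83 and -1.92 with a pseudocount of 5. Crcp, the gene of a receptor component protein that is also an RNA polymerase subunit, had a value of 1.35 that did not pass (adjusted p = 0.0609 in limma) and passed after rescaling (1.69, adjusted p = 0.0496). It held 62.4 in AAV-GFP replicate 2 against 278 and 299.6 in replicates 1 and 3, and without that library its difference was 0.62 and passed (adjusted p = 0.0413 in limma). Ramp1, Ramp2 and Ramp3, the partners that set the ligand of this receptor, were not analysed here. Only 1 fall was left on dropping AAV-GFP replicate 1 or AAV-Ly6d replicate 2. None was left on dropping AAV-GFP replicate 3 or AAV-Ly6d replicate 1 or 3, with 3, 2 and 2 of the 3 genes at an unadjusted limma p under 0.05.

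Semaphorin and plexin genes in the table moved mostly downward, with an exception. Of 31 listed genes 8 besides Plxnc1 were tested, 6 fell and 1 rose, 1 not passing, and their median was -1.20. Nrp2, already counted in the VEGF list, is among those that fell. Sema4b, a membrane-bound semaphorin gene, rose from 116, 86.1 and 87.8 in AAV-GFP to 226, 207 and 240 in AAV-Ly6d (log2 difference 1.22, SE 0.24, adjusted p = 0.0287 in limma). Plxna4 (-1.75), Sema5b (-1.51) and Plxnd1, the endothelial plexin gene (-1.25), fell. Sema7a, the ligand of the plexin that Plxnc1 encodes, was not analysed here. After rescaling 4 fell. Dropping AAV-GFP replicate 1 left 0 falls and 1 rise, and dropping AAV-GFP replicate 3 or AAV-Ly6d replicate 2 left 1 fall and 0 rises. Dropping AAV-Ly6d replicate 1 or 3 left 0 of each, with 6 and 7 of 8 genes at an unadjusted p under 0.05 in limma.

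Few genes related to Amotl1 and Aqp1 were in the table. Of 30 angiomotin and Hippo pathway genes 2 besides Amotl1 were tested. Tead1, a transcription factor partner of YAP, fell (log2 difference -0.91, adjusted p = 0.0439 in limma), but did not pass after rescaling (-0.57, adjusted p = 0.0763). Of the 6 fits that leave out 1 library, it passed in the one leaving out AAV-GFP replicate 2. Wwtr1, which encodes the YAP relative TAZ, had a value of -0.76 and did not pass. Of 11 aquaporin genes 2 besides Aqp1 were tested, of which Aqp8, a hepatocyte water channel gene, fell by 1.89 on the log2 scale and Aqp4 (-0.67) did not pass. Aqp8 did not pass once AAV-GFP replicate 3 or any one AAV-Ly6d library was dropped. Among 21 endothelial transcription factor genes 3 were tested. Ets1 fell (-1.34), Maf fell (-0.63, and did not pass after rescaling, at -0.29 with adjusted p = 0.235 in limma) and Klf4 (-0.99) did not pass. The count of 2 became 3 on dropping AAV-GFP replicate 2, 1 on dropping AAV-GFP replicate 1 or 3 or AAV-Ly6d replicate 2, and 0 on dropping AAV-Ly6d replicate 1 or 3, with 1 gene each at an unadjusted p under 0.05.

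Endothelial markers in the table other than these genes were lower in AAV-Ly6d. Of 35 listed markers 22 were in the table, among them Kdr, Ptprb, Calcrl and Cyyr1, whereas Aqp1, Plxnc1 and Amotl1 are not on the list. Of the other 18, 17 fell, 0 rose and S1pr1, named because it alone did not pass, had a value of -0.68. Their median log2 difference was -1.43, and -1.08 after rescaling, where 14 fell. Among the 18, Flt1, Flt4, Tek, Tie1 and Cldn5 were already counted in the lists above. F8, the coagulation factor VIII gene, fell by 1.99, and the Fc receptor gene Fcgr2b (-1.37) and the hyaluronan scavenger receptor gene Stab2 (-1.30) also fell. The list was chosen with earlier results of these data known, so it is not independent evidence of its direction. Dropping AAV-Ly6d replicate 1 took the 17 falls to 0 (16 at an unadjusted limma p under 0.05) and dropping AAV-Ly6d replicate 3 took them to 2. Falls over the whole table were 0 and 13 in these fits. The marker falls were 10 once AAV-GFP replicate 1 was dropped, and 11 for AAV-GFP replicate 3 or AAV-Ly6d replicate 2. Over the whole table these fits had 73, 82 and 83 falls. The summed level of the 22 markers was 12849 to 18938 in AAV-GFP and 5080 to 6014 in AAV-Ly6d.

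Markers of other liver cells moved in the same comparison. Of 18 stellate cell and fibroblast markers 9 were tested, 6 fell and 0 rose, 3 not passing, and the median was -1.41. The retinoid storage gene Lrat (-1.75) and the hepatocyte growth factor gene Hgf (-1.72) fell. Their summed level was 3714 to 5308 in AAV-GFP and 1151 to 2580 in AAV-Ly6d. Of 16 hepatocyte markers 6 were tested, 4 rose, 0 fell and 2 did not pass, and the 4 included Hnf4a (0.65) and Tdo2 (0.71). The summed level of these 6 was 365811 to 863633 in AAV-GFP, where replicate 2 was the highest, and 470801 to 508729 in AAV-Ly6d. Apob alone held 743167 of the sum in AAV-GFP replicate 2. It was the only marker of the 6 with a lower value in AAV-Ly6d (-0.61, not passing). The sum therefore does not show how the others stood. Of 8 mesothelial and smooth muscle markers 2 were tested, and Msln (-3.17, at 0 in AAV-Ly6d replicates 1 and 2) fell while Gpm6a (-1.56) did not pass. The size of the Msln difference depends on the pseudocount, from -3.86 with 0.5 to -1.64 with 5. The call of Msln was lost on dropping AAV-GFP replicate 3 or any one AAV-Ly6d library. None of 14 Kupffer cell, 12 neutrophil and monocyte or 16 lymphocyte markers was among the 1834 genes, and they are not analysed here. Dropping AAV-Ly6d replicate 1 or 3 left 0 stellate and 0 hepatocyte calls, with 5 or 6 stellate and 4 hepatocyte genes at an unadjusted limma p under 0.05. The stellate count was 3 once AAV-GFP replicate 1 or 3 was dropped, 4 for AAV-GFP replicate 2, and 4 after rescaling. The hepatocyte count was also 0 once AAV-GFP replicate 1 or 3 or AAV-Ly6d replicate 2 was dropped, with 4 genes at an unadjusted limma p under 0.05 in each. What part the makeup of the tissue has in the 7 genes' values was not tested.

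**Figure D5:**
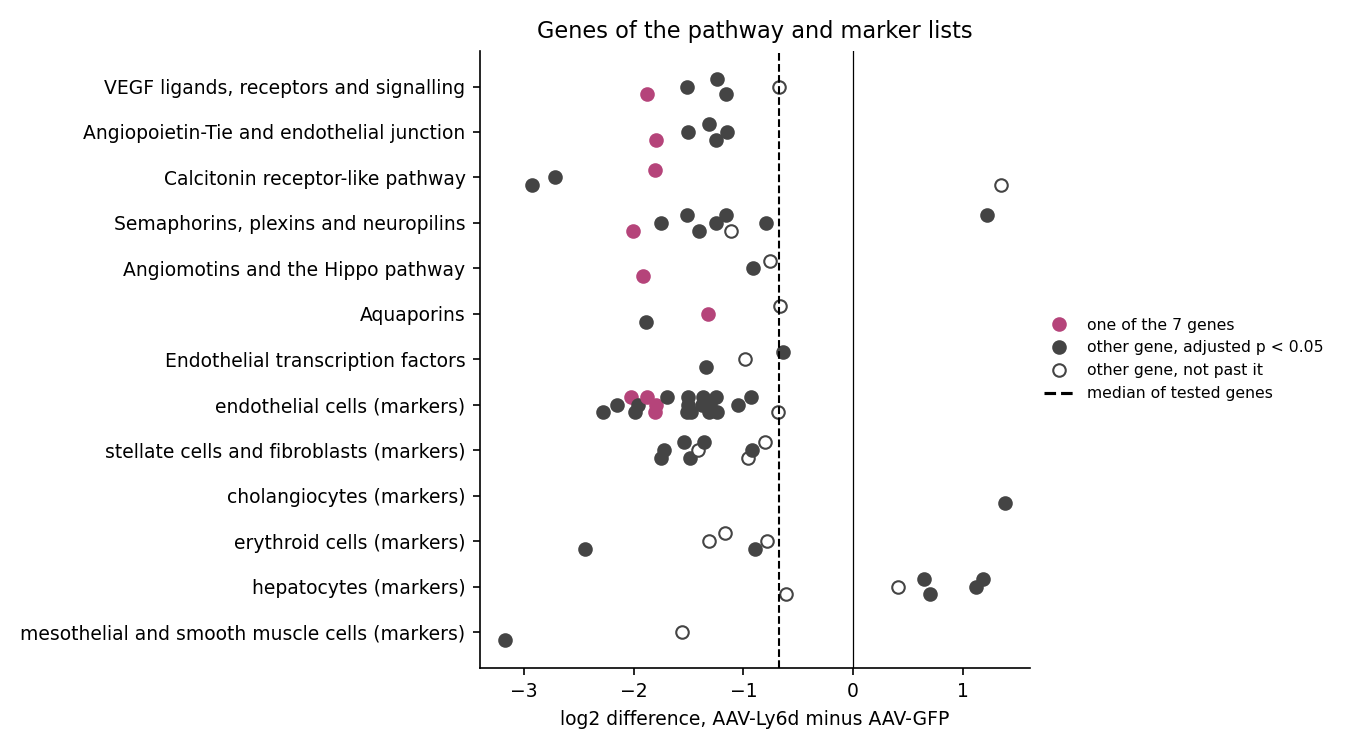
Log2 difference (AAV-Ly6d minus AAV-GFP) of each tested gene in the pathway and marker lists, filled where limma's adjusted p was under 0.05 and pink for the 7 genes. The dashed line is the median of all tested genes (-0.67); endothelial and stellate markers lie at or left of it and 5 of 6 hepatocyte markers lie right of 0.

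The genes whose profile was most like the mean profile of the 7 were F8, Pygm, Pcdh12, Lrrk2 and Plxna4. Likeness was the root mean square difference between log2(value + 1) profiles over 6 libraries, each centred on its own mean. It was 0.0968 for F8, 0.111 for Pygm, 0.151 for Pcdh12, 0.200 for Lrrk2 and 0.228 for Plxna4. Among the 7 themselves it ran from 0.101 for Kdr, through 0.200 for Ptprb, 0.255 for Calcrl, 0.280 for Cyyr1, 0.286 for Plxnc1 and 0.356 for Aqp1, to 0.367 for Amotl1. F8 held 792, 1193 and 723 in AAV-GFP and 222, 215 and 226 in AAV-Ly6d, so that, as for Kdr, replicate 2 was the highest AAV-GFP library. Pcdh12, an endothelial protocadherin gene, held 151, 203 and 133 against 49.6, 57.8 and 51.1. The glycogen phosphorylase gene Pygm is a low gene here, with means of 20.0 ± 7.36 and 4.40 ± 0.439 (SD, n = 3 each). Lrrk2, a kinase and GTPase gene, held 103 ± 38.4 and 26.2 ± 5.07.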

How the data were processed

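RNA sequencing of mouse liver gave 1 table of 1834 genes in 6 libraries. Per the submitters' processing notes, Bowtie 0.12.2 and mm10 were used, without role or order; the counter, its strand setting and the annotation are not stated, and the rule that chose the table's genes is not known here. Deposited values are a signal that is never negative; their steps are those of read counts divided by 1 factor per library, a scaling whose method the authors do not state in the labels. Each column's values were whole multiples of 1 step (100% to within 0.001); the reads so recovered entered edgeR 4.0.16 (967 genes called) and DESeq2 1.42.0 (1338) as alternatives. Full library depth is not known. Symbols and coordinates come from GENCODE M21 (GRCm38, which is mm10), with 1833 of 1834 identifiers matched, and promoters from RefSeq.

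Differences were fitted with limma 3.58.1 in R 4.3.3 (empirical Bayes with a mean-variance trend, no covariates) on log2(value + 1), a scale that makes the change of low genes look smaller. Genes reaching a value of 1 in 3 or more libraries, 1780 in all, were tested. A gene fell or rose where its adjusted p (Benjamini-Hochberg, over the tested genes) was under 0.05. On data simulated for 1834 genes with a dispersion of 0.05, this comparison recovered 68% of 100 genes changed 2-fold and 95% of 100 changed 4-fold, and called 11 of 1634 unchanged genes. The simulation gave all genes the same dispersion and left most unchanged, whereas few genes of the deposited table lie near no difference. Its rates are therefore not the error rates of the calls made here.

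The members and lists were chosen with earlier results of these data known. Named are the 7 genes, up to 4 genes per list by smallest p, and the 5 genes nearest in profile, unnamed gene models left out. Outside this rule, Apob is named for its value in AAV-GFP replicate 2 and S1pr1 because it did not pass. One listed marker is not reported here. Alternatives were leaving out each library, a replicate block, other filters, pseudocounts, scaling, tools and thresholds.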

Additional observations from a re-analysis of the deposited data

How the results depend on the processing

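Each of the 7 genes was lower in AAV-Ly6d under every alternative run. Apob was the 1 hepatocyte marker of 6 that was lower with all libraries, and without AAV-GFP replicate 2 it was not lower (0 of 6). The counts past the threshold depended on the libraries. Leaving out 1 library at a time gave 0 to 607 calls over the table (782 with all libraries), 0 to 14 endothelial markers outside the 7 genes (17) and 0 to 25 genes of the other lists (28). It gave 0 to 7 of the 7 genes, and a median log2 difference of the 7 between -2.07 and -1.52. The lowest counts came without AAV-Ly6d replicate 1, where 773 of 1764 tested genes had an unadjusted limma p under 0.05. Leaving out a library also lowers the number of samples. Rescaling by the median ratio moved that median to -1.54. With the stricter adjusted p of 0.01 limma called 1 gene in the table, 0 of the 7, 0 endothelial markers and 0 others. Adjusted over all 55450 annotated genes it called 1, 0, 0 and 0 in the same order. DESeq2 with that adjustment, added with earlier results known, called 124 in the table, 7 of the 7 genes, 11 endothelial markers and 6 others. The 7 genes were picked on this contrast, so their count adds no support. DESeq2 adjusted within the table called 1338. At an unadjusted p under 0.05 limma had 7 of the 7 genes and 18 of 18 endothelial markers, beside 1394 of all 1780 tested genes.

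Same-numbered libraries did not deviate together (correlations of -0.02, -0.05 and -0.06 for replicates 1, 2 and 3). With 3 libraries per group this cannot settle whether the numbers pair samples. With the replicate block limma called 48 genes in the table, 8 endothelial markers, 4 others and 5 of the 7 genes. Depth limits Cyyr1 most, with 35 reads in its lowest library. No adjusted p within the table covers the unknown choice of its genes.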
